A study of Sus scrofa with 6 samples.

Results

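The extracellular matrix genes of the pig renal medulla were examined after cardiopulmonary bypass (CPB), in which a pump and oxygenator replace the heart and lungs. The list held 59 genes for collagens, laminins, matrix proteoglycans, elastic fibre proteins and collagen-folding proteins. A gene was counted as measured when a probe set carried its symbol alone in the array annotation, and 31 of the 59 were, on 59 probe sets. Another probe set, which the study lists as COL3A1 and the annotation leaves unnamed, was added, and the members then held 60 of the 23999 probe sets tested. It had been picked by the study on these arrays, so its difference is a description and not a test.

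RNA came from blocks of outer medullary tissue of adult female Large White-Landrace crossbred pigs. The 3 Sham animals had 2.5 hours of general anaesthesia with neck dissection and heparin, and the 3 CPB animals had the same with 2.5 hours of CPB. Medulla was taken 24 hours after the intervention, and each animal had its own Affymetrix porcine array. The values are RMA intensities, in which background, array distribution and probe effects have been adjusted, and a difference is always the mean log2 intensity of CPB minus that of Sham. Differences were tested with limma, which shares information on the spread between probe sets, with Benjamini-Hochberg adjustment over all probe sets. The threshold of the study (a fold change of 1.6 or more with an unadjusted p below 0.05) was read from this limma fit.

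The matrix of the kidney has 2 main forms. Interstitial matrix lies between tubules and vessels, is made largely by fibroblasts and pericytes, and is built from fibrillar collagens, fibronectin, elastic microfibrils and small proteoglycans that coat the fibrils. Basement membrane is the thin sheet under epithelium and endothelium, in which a laminin network and a type IV collagen network are joined by nidogens and heparan sulphate proteoglycans. In injured kidney, expansion of the interstitial matrix is the hallmark of fibrosis.

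Interstitial genes were measured on 47 probe sets of 23 genes and basement membrane genes on 13 probe sets of 8 genes. The measured interstitial genes were COL1A2, COL2A1, COL3A1, COL5A1, COL5A2, COL11A1, COL6A2, COL6A3, COL8A1, COL10A1, DCN, LUM, BGN, ASPN, PRELP, VCAN, ACAN, FN1, FBN1, FBLN1 and MFAP5, with LOX and SERPINH1, which crosslink and fold collagen. The measured basement membrane genes were COL4A2, LAMB1, LAMB2, LAMC1, NID2 and COL15A1, with COL7A1 and COL17A1, which anchor epithelia to the membrane. The other 28 genes of the list were not analysed here for want of a named probe set. They are COL1A1, COL4A1, COL4A3, COL4A4, COL4A5, COL4A6, COL6A1, COL8A2, COL9A1, COL12A1, COL14A1, COL16A1, COL18A1, COL21A1, FMOD, OGN, HSPG2, AGRN, FBN2, FBLN2, FBLN5, ELN, MFAP4, LAMA2, LAMA3, LAMA4, LAMA5 and NID1. No laminin alpha chain and only 1 type IV collagen chain could therefore be followed.

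The arrays of a group were not alike in their tissue markers. The proximal tubule is chiefly a cortical segment, and 16 of its 24 markers were measured. Their summed intensity ran from 3560 to 36434 in Sham and from 5107 to 41403 in CPB animals, and none was at 0, the lowest value being 22.0 for SLC7A9. It was low in Sham 1 and CPB 2, intermediate in Sham 3 at 13173, and high in Sham 2, CPB 1 and CPB 3. The sources used here give no scan date or batch, so batch could not be examined. KCNJ1 and EGF of the thick ascending limb, a defining segment of the outer medulla, were read at 835 to 2219 and at 660 to 2179.

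Few matrix probe sets could be called different between CPB and Sham medulla with 3 animals per group. Of the 60 probe sets 1, the COL3A1 probe set picked by the study, met the study's threshold, beside 0.304% of all probe sets (0.217% lower in CPB). None of the 60 had a limma adjusted p under 0.05, beside 0% of all probe sets, and the smallest adjusted p was 0.995. That COL3A1 probe set was also the only member with an unadjusted limma p under 0.05 (1.67% of members, 1.4% of all). It is a member because the study picked it on these arrays, so both counts are fixed by its inclusion. Of the 59 annotated member probe sets, 0 met the study's threshold and 0 had an unadjusted limma p under 0.05. With the methods' t-test no member met the study's threshold. The groups did not overlap for 3 of 60 member probe sets, or 5%, where 5.27% of all probe sets did not overlap. The median size of the difference was 0.129 on the log2 scale over the members and 0.127 over all probe sets. It exceeded the pooled SD between animals of a group for 13 of 60 members (21.7%) and for 22.7% of all probe sets. In overlap, in size and against the spread the members lay near the background.

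**Figure D1:**
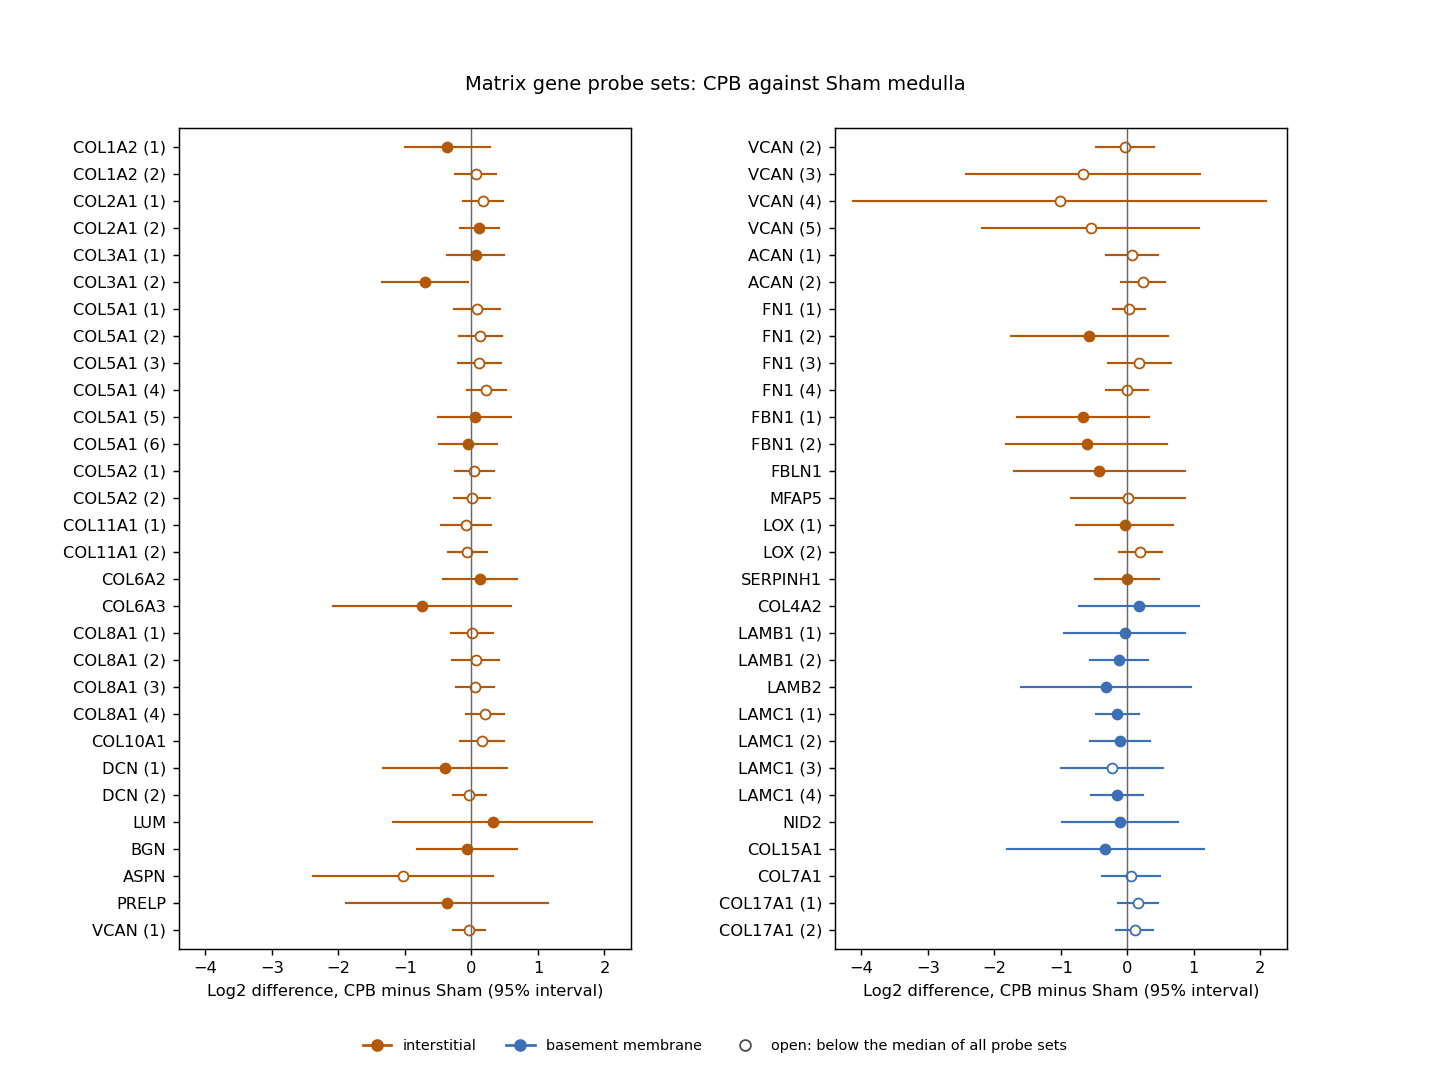
Log2 difference, CPB minus Sham, for each of the 60 matrix probe sets, with its 95% confidence interval from limma (n = 3 animals per group). Brown is interstitial, blue is basement membrane, open circles lie below the median intensity of all probe sets, and numbers after a name count the probe sets of that gene in the order of their names. Only the COL3A1 probe set picked by the study has an interval that leaves out 0.

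The sign of the differences went with brightness. Of the 27 member probe sets above the median intensity of all probe sets, 21 had a lower mean in CPB (77.8%, against 49.3% of all bright probe sets). Of the 33 dim ones 11 did (33.3%, against 38.9% of all dim probe sets), so that over all members 32 of 60 (53.3%) were lower, beside 44.1% of all probe sets. The bright probe sets also varied more between animals, with a median range of 1.12 on the log2 scale over the 6 arrays, against 0.378 in the dim ones (0.729 and 0.461 over all probe sets). Without Sham 1 the lower count among the 27 bright probe sets was 13, beside 46.4% of all bright probe sets, with a median difference of 0.0109 in place of -0.126. Without CPB 3 the lower count was 16, beside 46.6% of all bright probe sets. It was 21 without Sham 2, 22 without Sham 3, 24 without CPB 1 and 21 without CPB 2, beside 48% to 51.9%. Probe sets of 1 gene share their target, and the 27 are not independent. The 21 lower ones include the COL3A1 probe set that the study picked on these arrays. With 1 probe set per gene, the brightest, the median difference was -0.041 over 23 interstitial genes and -0.11 over 8 basement membrane genes, beside 0.033 over 6765 named genes. The interstitial median was -0.363 when dim probe sets were left out, and without Sham 1 the medians were 0.011 and 0.055, the opposite sign. These interstitial medians include the picked COL3A1 probe set. With annotated probe sets alone, on all 6 arrays, the interstitial median was -0.0315, with 13 genes lower and 10 higher. Less RNA per cell and fewer cells that make it cannot be told apart in whole tissue.

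COL3A1 encodes the type III fibrillar collagen of loose connective tissue. On the probe set picked by the study its intensity was 5082, 2961 and 3512 in Sham 1, Sham 2 and Sham 3. It was 3037, 2136 and 1925 in CPB 1, CPB 2 and CPB 3, and values below follow this order of animals. The groups overlapped, since CPB 1 lay above Sham 2, and the other CPB animals were below every Sham animal. Sham animals averaged 3852 ± 1100.3 (SD, n = 3), CPB animals averaged 2366 ± 591 (SD, n = 3), and the difference was -0.69 (standard error 0.27). The study's threshold was met in the limma fit and was not met with the methods' t-test as run here. Nor was it met without Sham 1 (-0.48), without Sham 3 (-0.74), without CPB 2 (-0.63) or without CPB 3 (-0.56). The annotated COL3A1 probe set did not show this difference. It read 143, 108 and 112 in Sham against 124, 147 and 108 in CPB medulla, and its difference was 0.062 (standard error 0.18, 95% confidence interval -0.37 to 0.49).

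Of the other fibrillar collagens, COL1A2, a chain of type I collagen, had its highest value in Sham 3. Its bright probe set read 341, 256 and 503 in Sham and 292, 237 and 297 in CPB animals. The difference of -0.36 (standard error 0.26) was within the spread between animals, and the dim COL1A2 probe set differed by 0.062 (standard error 0.12). COL5A1 and COL5A2, the chains of type V collagen that limit fibril width, differed little. The 6 COL5A1 probe sets differed by -0.050 to 0.23 and the pair of COL5A2 probe sets by 0.012 and 0.044. For 1 of the COL5A1 probe sets the groups did not overlap, with 56.1, 57.9 and 49.4 in Sham and 61.6, 68.8 and 60.5 in CPB animals. Its difference was 0.23 (standard error 0.12), and the other 5 overlapped. The cartilage collagens COL2A1 and COL11A1 stayed between -0.080 and 0.18 on their 4 probe sets.

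Among the other interstitial collagens, COL6A3, a chain of the beaded filaments of type VI collagen, had the largest difference. It read 559, 215 and 252 in Sham and 281, 249 and 92.9 in CPB animals. Sham 1 stood above and CPB 3 below the other 4 animals, which lay within 215 to 281. The difference of -0.74 (standard error 0.55) had a 95% confidence interval of -2.08 to 0.59, and it was -0.32 without Sham 1. COL6A2, which pairs with COL6A3 in the same filament, read 129 to 192 in Sham and 143 to 212 in CPB animals and differed by 0.13 (standard error 0.23). COL8A1, a short-chain collagen of vessel walls, was higher by 0.20 (standard error 0.11) on 1 of its 4 probe sets, where CPB animals read 62.8, 75.3 and 70.5 and Sham animals 58.8, 61.4 and 60.4 without overlap. Its other 3 probe sets differed by 0.013 to 0.061 with overlapping groups. COL10A1 differed by 0.16 (standard error 0.14).

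Among the proteoglycans of the interstitium, VCAN held the probe set with the widest range over the 6 arrays of any member. VCAN encodes versican, a large proteoglycan of loose matrix. On the most variable of its 5 probe sets it read 303, 15.7 and 63.4 in Sham and 20.9, 122 and 14.3 in CPB animals. Sham 1 and CPB 2 were high, Sham 3 intermediate and the other three low, so both groups held a high and a low animal. The highest array stood 21.2-fold above the lowest, while the group difference was -1.02 (standard error 1.27) and was 0.068 without Sham 1. All 5 VCAN probe sets lay below the median intensity of all probe sets, and this fold range rests on readings as low as 14.3. On the log2(value + 16) scale the group difference was -0.80. On a second probe set VCAN read 108, 17.4 and 26.3 in Sham and 20.0, 38.3 and 16.2 in CPB animals, and on another 44.8, 8.6 and 9.3 against 9.0, 14.4 and 8.7. Sham 1 and CPB 2 were again the highest pair on both. The remaining VCAN probe sets did not show the pattern, with 60.4 to 84.4 and 7.0 to 7.5 over the 6 arrays.

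ASPN, DCN, LUM, BGN and PRELP are small leucine-rich proteoglycans that bind collagen fibrils. ASPN, asporin, had the largest group difference of all members, at -1.03 (standard error 0.55). It read 230, 50.4 and 151 in Sham and 73.3, 52.2 and 54.0 in CPB animals, so Sham 1 and Sham 3 were high while Sham 2 was below every CPB animal. Without Sham 1 the difference was -0.56. DCN, decorin, read 3780, 1640 and 1880 in Sham and 2021, 2103 and 1208 in CPB animals on its bright probe set. Sham 1 stood apart, and the difference of -0.39 (standard error 0.38) was -0.025 without it. PRELP, which also binds basement membrane proteoglycan, read 1444, 377 and 340 in Sham and 470, 646 and 286 in CPB animals, and its difference went from -0.36 (standard error 0.62) to 0.31 without Sham 1. BGN, biglycan, differed by -0.069 (standard error 0.31).

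LUM, lumican, did not follow the other small proteoglycans. It read 71.0, 78.4 and 186 in Sham and 283, 73.9 and 95.7 in CPB animals, so that CPB 1 and Sham 3 were its high animals. Its difference, 0.32 (standard error 0.61), was the largest upward difference of any member and was smaller than its standard error. ACAN, aggrecan, differed by 0.065 and 0.23 on its dim probe sets.

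FN1, FBLN1 and the brighter FBN1 probe set were highest in Sham 1. FN1, fibronectin, which cells bind through integrins, read 1108, 299 and 436 in Sham and 441, 330 and 303 in CPB animals on its bright probe set. Apart from Sham 1 all animals lay within 299 to 441, and the difference of -0.57 (standard error 0.49) was -0.032 without it. Its other 3 probe sets were dim, and 1 of them stayed within 50.6 to 53.4 on all 6 arrays. FBLN1, fibulin-1, a partner of fibronectin and elastin, read 980, 286 and 560 in Sham and 409, 628 and 255 in CPB animals. Its difference of -0.42 (standard error 0.53) was 0.011 without Sham 1.

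FBN1 encodes fibrillin-1, the core of elastic microfibrils, and its 2 probe sets ordered the animals differently. On the brighter it read 844, 313 and 454 in Sham and 317, 547 and 195 in CPB animals, with CPB 2 second. On the dimmer it read 170, 64.2 and 178 in Sham and 82.9, 81.0 and 72.2 in CPB animals, so that CPB 2 was level with the other CPB animals. The differences were -0.61 (standard error 0.50) and -0.67 (standard error 0.41), and without Sham 1 they were -0.22 and -0.45. MFAP5, a microfibril protein, had its lowest value in Sham 1. It read 66.3, 93.4 and 134 in Sham and 89.1, 69.4 and 138 in CPB animals, a difference of 0.010 (standard error 0.35).

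LOX, lysyl oxidase, which crosslinks collagen and elastin, read 161, 142 and 125 in Sham and 193, 88.5 and 154 in CPB animals on its bright probe set, a difference of -0.041 (standard error 0.30). SERPINH1, the collagen chaperone of the endoplasmic reticulum, had a difference of -0.0050 (standard error 0.20, 95% confidence interval -0.49 to 0.48). It read 635, 410 and 436 in Sham and 533, 484 and 435 in CPB animals.

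**Figure D2:**
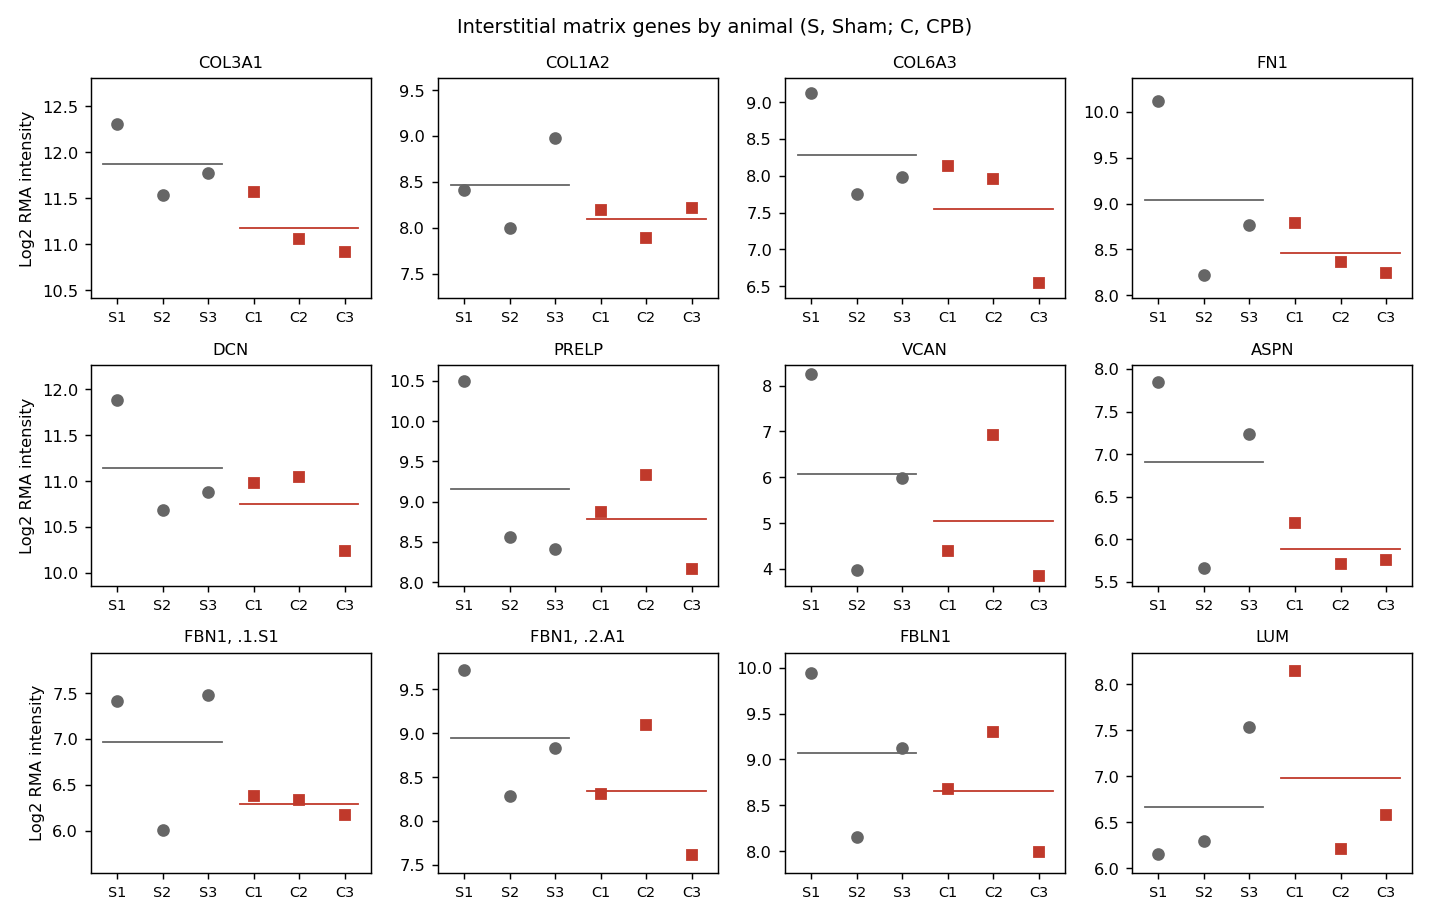
Log2 RMA intensity of 12 interstitial probe sets in each animal (circles, 3 Sham; squares, 3 CPB), with a line at the mean of each group. Each panel has its own axis. COL3A1 is the probe set picked by the study, VCAN is its most variable probe set, and the FBN1 panels are its dimmer and then its brighter probe set. Sham 1 is the highest animal in 9 of the 12 panels, and the exceptions are COL1A2, the dimmer FBN1 probe set, and LUM. The panels are a choice, and PRELP, FBLN1 and the brighter FBN1 probe set were added after their values were seen. Over all 47 interstitial probe sets Sham 1 was highest for 15 (31.9%) and lowest for 9 (19.1%).

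A pair of arrangements of the animals recurred among the interstitial genes. In the first, Sham 1 and CPB 2 were the highest animals, as for VCAN, PRELP, FBLN1 and FBN1 on its brighter probe set. In the second, Sham 1 and Sham 3 were high and Sham 2 was as low as the CPB animals, as for ASPN and for FBN1 on its dimmer probe set. Without Sham 2, 3 of the 60 members met the study's threshold, beside 2.92% of all probe sets, and the COL3A1 probe set picked by the study was among them. The others had the second arrangement, with differences of -1.65 for ASPN and -1.15 for FBN1. Since Sham 2 is the low Sham animal that defines the arrangement, its removal widens these differences by construction, and nothing is drawn from it. Without both Sham 2 and CPB 2, 5 members met the study's threshold, all lower (FBN1 on both probe sets, ASPN, FBLN1 and VCAN), beside 12.8% of all probe sets. The arrays left in that comparison also divide by their proximal tubule markers, with a mean of -2.20 and -0.26 in Sham 1 and Sham 3 and of 1.36 and 1.49 in CPB 1 and CPB 3.

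Over all 60 member probe sets, Sham 1 was the highest array for 20 (33.3%, against 15.3% of all probe sets). The range over the 6 arrays was at least 4-fold for 8 members (13.3%), against 5.6% of all probe sets. These were VCAN on 3 probe sets, COL6A3 (6.02-fold), PRELP (5.05-fold), ASPN (4.56-fold), FBN1 (4.33-fold) and COL15A1 (4.29-fold), and Sham 1 was the highest animal for all 8. LUM at 3.99-fold and FBLN1 at 3.84-fold lay just under that limit.

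Sham 1 was the highest array for 5 of 13 basement membrane probe sets (38.5%), beside 15 of 47 interstitial ones (31.9%). LAMB2 had the first arrangement above, with Sham 1 and CPB 2 highest, and most other basement membrane genes had neither arrangement. COL4A2, a chain of the type IV collagen network of all basement membranes, read 1338, 924 and 560 in Sham and 1325, 1019 and 735 in CPB animals. Sham 3 was the lowest animal, the groups overlapped, and the difference was 0.17 (standard error 0.37). COL15A1, a collagen that ties basement membrane to the interstitium around vessels, had the largest difference of these genes, -0.33 (standard error 0.61). It read 1145, 860 and 267 in Sham and 846, 407 and 387 in CPB animals. Sham 3 lay below all CPB animals, and the difference was 0.090 without Sham 1 and -0.96 without Sham 3.

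NID2, nidogen-2, which bridges laminin and type IV collagen, read 677, 682 and 472 in Sham and 751, 327 and 699 in CPB animals. CPB 2 and Sham 3 were low and the other 4 within 677 to 751, so the difference was -0.11 (standard error 0.36). EGF of the thick ascending limb was also lowest in these animals, at 660 in Sham 3 and 701 in CPB 2, against 1579 to 2179 in the others. KCNJ1, the other marker of that segment, was high in CPB 2 at 2128 and low in Sham 3 at 881. The part of that segment in the NID2 values was not tested.

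Laminins are trimers of an alpha, a beta and a gamma chain. LAMC1, the gamma chain of most of them, was measured on 4 probe sets, each with a lower mean in CPB, by -0.11 to -0.23, and each with overlapping groups. On the brightest it read 510, 391 and 504 in Sham and 501, 450 and 353 in CPB animals (-0.11, standard error 0.19). On the LAMC1 probe set with the largest difference it read 74.3, 84.8 and 114 in Sham and 95.3, 48.9 and 95.6 in CPB animals (-0.23, standard error 0.32). Another LAMC1 probe set, whose suffix marks probes shared with other transcripts, read 162, 134 and 160 in Sham and 136, 160 and 115 in CPB animals (-0.15, standard error 0.16).

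LAMB1, a beta chain, was steady on its brighter probe set, with 1071, 1217 and 1040 in Sham and 1283, 882 and 922 in CPB animals (-0.13, standard error 0.18). Its dimmer probe set separated Sham 1 (218) and CPB 2 (195) from the other 4 animals, which lay within 371 to 408. LAMB2, the other beta chain measured here and a component of glomerular and vascular membranes, took the opposite order. It read 304, 124 and 170 in Sham and 141, 280 and 83.8 in CPB animals. LAMB2 and the dimmer LAMB1 probe set thus set Sham 1 and CPB 2 apart from the rest, and the brighter LAMB1 probe set did not. LAMB2 did not set CPB apart from Sham, at -0.32 (standard error 0.52, and 0.038 without Sham 1). Nor did the dimmer LAMB1 probe set, at -0.040 (standard error 0.37).

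COL17A1, a collagen that spans the membrane of basal epithelial cells, read 42.8, 44.6 and 36.4 in Sham and 45.4, 44.9 and 47.3 in CPB animals on the dimmer of its probe sets, without overlap. The difference was 0.16 (standard error 0.12), and on the other probe set, which is also dim, the groups overlapped with a difference of 0.11 (standard error 0.11). COL7A1, the anchoring fibril collagen, differed by 0.059 (standard error 0.18).

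**Figure D3:**
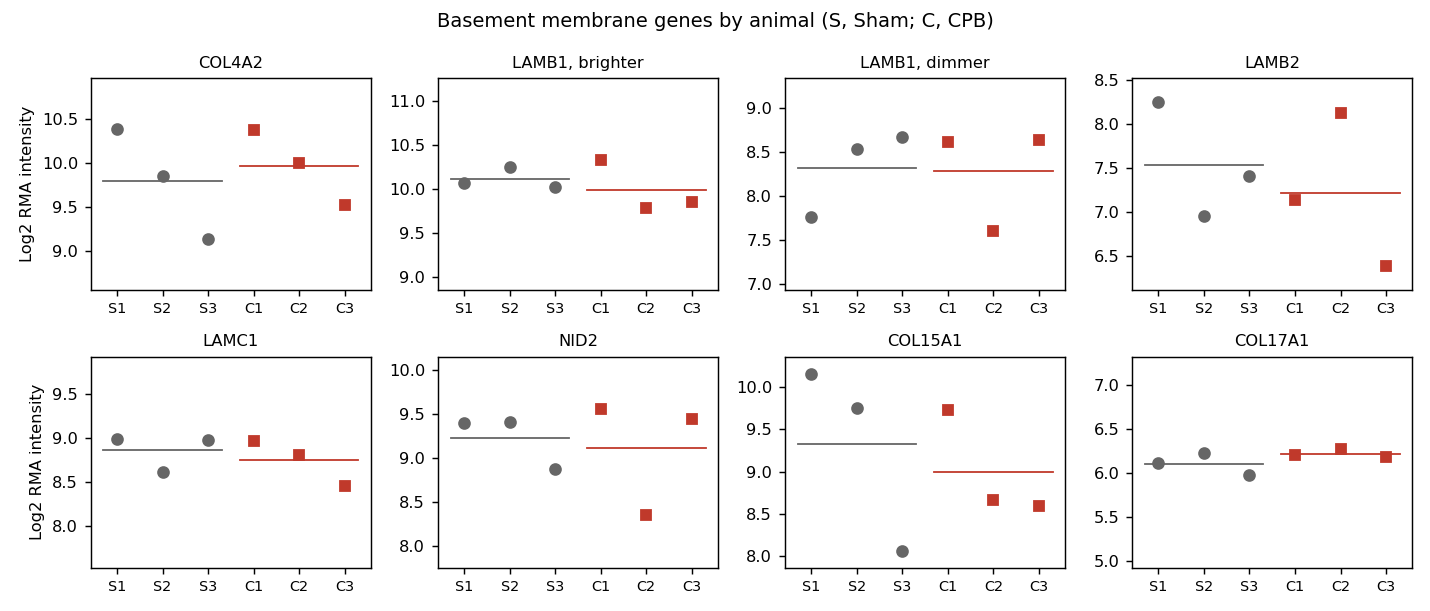
Log2 RMA intensity of 8 basement membrane probe sets in each animal (circles, 3 Sham; squares, 3 CPB), with a line at the mean of each group. Each panel has its own axis. LAMB2 is high and the dimmer LAMB1 probe set low in Sham 1 and CPB 2, while Sham 3 is the lowest animal for COL4A2 and COL15A1.

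Probe sets of the same gene did not always share a direction. Of 16 genes with several probe sets, 6 had a lower mean in CPB on all of them (COL11A1, DCN, VCAN, FBN1, LAMB1 and LAMC1) and 5 a higher mean on all (COL2A1, COL5A2, COL8A1, ACAN and COL17A1). The remaining 5, COL1A2, COL3A1, COL5A1, FN1 and LOX, had both. In COL1A2, COL3A1, FN1 and LOX the brightest probe set was the lower or lowest of its gene.

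The matrix lists were set beside cell type markers on each array, as list means of log2 values from which each gene's own mean had been subtracted. The interstitial genes read 0.40, -0.18 and 0.06 in Sham and 0.08, -0.05 and -0.31 in CPB animals, and the basement membrane genes 0.35, 0.09 and -0.31 in Sham and 0.22, -0.06 and -0.28 in CPB animals. The 6 measured of 9 fibroblast and pericyte markers, which hold no member gene, read 0.66, -0.35 and 0.42 in Sham and -0.33, 0.22 and -0.61 in CPB animals. Their summed intensity was 3254 to 6724 in Sham and 2861 to 4354 in CPB animals, and the lowest value, 63.1, was that of THY1. Proximal tubule markers read -2.20, 1.22 and -0.26 in Sham and 1.36, -1.60 and 1.49 in CPB animals, with all 16 higher in CPB on average and a median difference of 0.845. The 6 measured of 15 urothelium markers read 0.35, -0.80 and 1.28 in Sham and -0.71, 0.60 and -0.73 in CPB animals, with sums of 563 to 3241 and of 731 to 2963 and a lowest value of 28.4 for UPK1B. The 12 measured of 14 endothelial markers read 0.48, -0.18 and 0.15 in Sham and -0.37, 0.43 and -0.51 in CPB animals. Their sums were 2263 to 4085 and 1650 to 3415, and the lowest value was 44.7 for KDR. Of these endothelial markers 6 were higher and 6 lower in CPB on average. PECAM1, on a probe set that the study also picked on these arrays, met the study's threshold at -0.75 (standard error 0.29). Its groups overlapped, and 0.304% of all probe sets met that threshold. The 7 measured of 9 smooth muscle markers read 0.40, -0.35 and 0.31 in Sham and -0.48, 0.52 and -0.40 in CPB animals, with sums of 2340 to 7469 and 2117 to 6195 and a lowest value of 54.8 for CNN1. Sham 1 and CPB 2 were the highest animals of both lists, as for VCAN, FBLN1 and the brighter FBN1 probe set. The part of these markers in the matrix differences was not tested.

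Sham 1 had the lowest proximal tubule mean and the highest mean of both matrix lists. CPB 2, with the next lowest proximal tubule mean, lay below CPB 1 in both matrix lists, and the lowest basement membrane mean was that of Sham 3. With the proximal tubule mean as a covariate in the limma fit, the difference became smaller in size for 37 of the 60 member probe sets and larger for 23, and its sign changed for 8. The most variable VCAN probe set differed by -0.12 in place of -1.02, PRELP by -0.0053 in place of -0.36 and FBLN1 by -0.073 in place of -0.42. COL3A1 differed by -0.62 with it, short of the study's threshold, and COL6A3 by -0.48. COL1A2 (-0.37) and COL15A1 (-0.32) hardly moved and ASPN went to -0.81, while NID2 went from -0.11 to -0.27 and the dimmer LAMB1 probe set from -0.040 to -0.28. Across the array, 108 probe sets passed that threshold once the covariate was in the fit, and 73 passed without it.

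**Figure D4:**
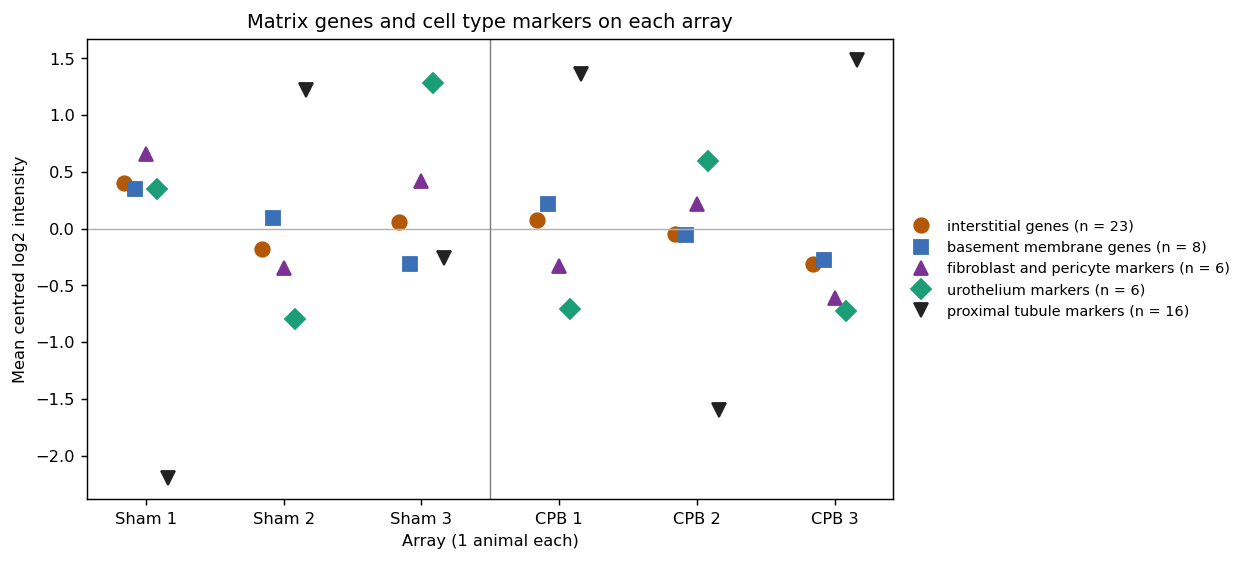
Centred mean log2 intensity (each gene's own mean subtracted, 1 probe set per gene) for 5 lists, by animal. Each point is 1 list on 1 animal, shifted sideways for legibility, with a vertical line between the groups. Interstitial genes span 0.40 in Sham 1 to -0.31 in CPB 3, and proximal tubule markers span -2.20 in Sham 1 to 1.49 in CPB 3.

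Genes that act on the matrix were followed from 3 further lists. Of 32 symbols for collagen-processing and crosslinking enzymes, older symbols included, 11 were measured, with 5 higher and 6 lower in CPB on average (median -0.086), where 2966 of 6765 named genes were lower. None met the study's threshold in either direction. BMP1, the protease that trims procollagen, read 134, 152 and 106 in Sham and 164, 154 and 172 in CPB animals, and PLOD3, a lysyl hydroxylase, 352, 354 and 325 against 428, 382 and 372. For this pair the groups did not overlap, at 0.34 (standard error 0.16) and 0.20 (standard error 0.11), and over all named genes 363 of 6765 did not overlap. CRTAP, a partner in prolyl hydroxylation of collagen, differed by -0.27 (standard error 0.19).

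Of 24 matrix receptors 12 were measured, 3 higher and 9 lower in CPB on average (median -0.067, against 0.033 over all named genes), and none met the study's threshold. SDC2, the heparan sulphate receptor syndecan-2, had the smallest p of them. It read 1276, 363 and 1143 in Sham and 399, 480 and 372 in CPB animals, high in Sham 1 and Sham 3 and lowest in Sham 2 as for ASPN, with a difference of -0.96 (standard error 0.49). ITGAV, the integrin alpha V chain, differed by -0.39 (standard error 0.22) and SDC4 by 0.30 (standard error 0.22). Of 35 other matrix genes 8 were measured, 2 higher and 6 lower (median -0.165, with 2966 of 6765 named genes lower), and none was at the study's threshold. HAPLN1, a link protein of proteoglycans, was dim, at 11.4 to 19.1 over the 6 arrays, and differed by -0.33 (standard error 0.21). EMILIN2, an elastic fibre glycoprotein, differed by -0.37 (standard error 0.26) and DPT, dermatopontin, by 0.22 (standard error 0.22).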

How the data were processed

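RNA of each of 6 pigs was hybridised by itself to an Affymetrix porcine array. RMA was run by the authors in ArrayStar, and they deposited the resulting intensity values for 24123 probe sets. The scale was read from the values as linear. No genome build is named, so no positions are given. Background signal was not analysed here.

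Groups and replicate numbers follow the titles. The 124 control probe sets were left out, log2 was taken, and CPB was compared with Sham in limma 3.58.1 (lmFit, eBayes; R 4.3.3) over 23999 probe sets, with group as the only term. The fit was tested on simulated data. Of 10297 annotated probe sets, 10099 have 1 symbol and 198 have several, and only the first kind names genes. For medians, each gene was given by its probe set with the highest mean.

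The members, lists and tests were chosen with earlier results of these data known. Per-animal values are given for member probe sets that met the study's threshold, had an unadjusted p under 0.05 or did not overlap, for all COL3A1 probe sets, for the 6 largest differences of each compartment and for set reference genes (COL1A2, FN1, DCN, LUM, COL4A2, LAMB1 and LAMC1 among those measured). Of each further list, the 3 genes with the smallest p are named with their differences, and BMP1, PLOD3 and SDC2 with values per animal. PRELP, FBLN1, MFAP5, COL6A2, LOX, SERPINH1, NID2, the dimmer LAMB1, VCAN and FN1 probe sets and the brighter FBN1 probe set fall outside this and were added after their values were seen. Marker lists were used as centred means, sums, counts and medians, and the proximal tubule mean as a covariate. EGF, KCNJ1, PECAM1, RGS5 and VIM were also named with their values known.

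The alternatives were the methods' t-test, an intensity trend with a robust prior, quantile normalization repeated, arrays centred on their medians, log2(value + 16), leaving out dim probe sets, keeping control probe sets, a replicate block, a proximal tubule covariate, leaving out arrays, averaging the probe sets of a gene, and fold minimums of 1.5 and 2. The precision rests on 3 animals per group, and 3 against 3 cannot give an exact two-sided permutation p below 0.1.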

Additional observations from a re-analysis of the deposited data

How the results depend on the processing

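The count at the study's threshold over all probe sets, 73, was 30 with the methods' t-test, 48 on the log2(value + 16) scale, 21 at a fold minimum of 2, 3070 without Sham 2 and CPB 2, and 52 to 701 when 1 array was left out. The count over the 60 matrix probe sets, 1, was 0 with the methods' t-test, at a fold minimum of 2 and with the proximal tubule covariate, 5 without Sham 2 and CPB 2, and 0 to 3 when 1 array was left out. The study's COL3A1 probe set kept its lower mean in every alternative. It fell short of the threshold with the methods' t-test (-0.694), with the covariate (-0.622) and without Sham 2 and CPB 2 (-0.805). When 1 array was left out, its difference ranged from -0.475 to -0.888, and it met the threshold only without Sham 2 or without CPB 1. The interstitial median, -0.041, was -0.363 when dim probe sets were left out, an alternative that drops genes such as ASPN, VCAN and ACAN from the list. The medians moved by less than the spread between animals in every other alternative, yet both changed sign without Sham 1, to 0.011 for the interstitial and 0.055 for the basement membrane genes, and the basement membrane median also changed sign without CPB 3 (0.064) and without Sham 2 and CPB 2 (0.095). Same-numbered animals did not deviate together (correlations of -0.389, -0.681 and -0.016), and the numbers were not used to pair the samples. With 3 animals per group that differ in their tissue markers, these correlations cannot exclude a pairing. With the replicate block the counts were 76 and 1. The number of arrays limits precision.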

Other observations

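The widest ranges over the 6 arrays in the 3 further lists belonged to a pair of related basement membrane proteins, chosen after their values were seen. TINAG, the tubulointerstitial nephritis antigen of tubular basement membranes, read 317, 2711 and 1081 in Sham and 3361, 285 and 3885 in CPB animals, a difference of 0.67 (standard error 1.24). Its relative TINAGL1 took the opposite order, at 1066, 207 and 572 in Sham and 256, 1177 and 161 in CPB animals, a difference of -0.46 (standard error 0.91). TINAG was low and TINAGL1 high in Sham 1 and CPB 2, the animals with the lowest proximal tubule means, and both groups held low and high animals of each gene.

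The syndecans also split. SDC1, the main syndecan of epithelia, read 96.9, 305 and 275 in Sham and 650, 121 and 616 in CPB animals, while SDC2 was high only in Sham 1 and Sham 3. RGS5, a pericyte marker, was likewise low in Sham 2, with 486, 119 and 821 in Sham and 131, 159 and 114 in CPB animals and a difference of -1.44 (standard error 0.69). VIM, the intermediate filament of mesenchymal cells, read 3391, 1700 and 2756 in Sham and 1760, 1725 and 1818 in CPB animals. PLOD1, a lysyl hydroxylase of collagen, stood apart in CPB 2 at 1096, against 315 to 581 in the other 5 animals. None of these met the study's threshold, and all were chosen after their values were seen.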
